A study of Mus musculus with 23 samples.

Results

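Microtubules are hollow polymers of alpha and beta tubulin that give a cell its long-range tracks and, in division, its spindle. Kinesins mostly walk toward the fast-growing plus end of the track, and cytoplasmic dynein, with its cofactor dynactin, walks toward the minus end. Structural microtubule-associated proteins bind along the lattice and stabilise it, and several of them are classic markers of neuronal axons and dendrites. In the injured spinal cord these genes matter in astrocytes that change shape around a lesion, in axons that degenerate or grow, and in the immune cells that enter the tissue.

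Gene symbols of the tubulins (Tuba, Tubb and Tubg followed by a digit), kinesins (Kif, Klc1 to Klc4), cytoplasmic dynein and dynactin subunits (Dync, Dynl, Dctn1 to Dctn6) and the microtubule-associated proteins Map1a, Map1b, Map2, Map4 and Mapt were taken from the deposited count tables of both RNA fractions, and counts were summed per gene. The symbols found 59 genes of 9480 in either table. All 59 were listed for the precipitated fraction and 40 of them for the flow-through. Of the 59, 4 were alpha tubulins, 8 beta tubulins, 1 gamma tubulin, 22 kinesins, 2 kinesin light chains, 5 dynein chains of the Dync series, 7 dynein light chains of the Dynl series, 5 dynactin subunits and 5 structural proteins. The pattern also took in Kif1bp, a protein that binds a kinesin and is no motor, and the pseudogene Tubb4b-ps1.

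The samples came from young adult RiboTag mice, in which Cre under a mouse Gfap promoter switches on a hemagglutinin tag on ribosomes, and the genotype field of the labels reads wild type throughout. A severe crush injury (SCI) had been made at thoracic level 10 in every animal, and the central 3 mm of tissue was taken at day 14. RNA pulled down through the tag is called HA and the unbound remainder, the flow-through, FT. Libraries with SCI only (4 HA, 4 FT) had no depot, those with hydrogel CT (3 HA, 4 FT) had a hydrogel depot from day 2, and those with hydrogel and growth factors (3 HA, 5 FT) had a depot from day 2 that carried growth factors. The series title and the table headers name different growth factors, and the name was not settled here. Cre under a Gfap promoter marks cells that have used this promoter, which includes progenitor cells besides mature astrocytes. Title numbers lie between 9596 and 9935 for SCI only and between 1645 and 1762 for both hydrogel groups, so an effect of the depot and one of the numbered set of libraries cannot be told apart. Whether title numbers stand for separate animals is not stated in the labels, so p-values measure the spread between libraries, which may be technical.

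Tubb2b, on which several results turn, has a near copy in Tubb2a, and the last 75 coding bases of both are shown because a short read from here can be placed on the wrong copy. The bases are printed 5′ to 3′ on the coding strand from transcripts of GENCODE M21 (GRCm38), and capitals mark the positions at which the pair differs.
Tubb2a: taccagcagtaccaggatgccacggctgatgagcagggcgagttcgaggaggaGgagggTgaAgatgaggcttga
Tubb2b: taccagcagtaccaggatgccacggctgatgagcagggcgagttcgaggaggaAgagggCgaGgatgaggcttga

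Of these 75 bases, 3 differed between Tubb2a and Tubb2b. The run of gag and gaa codons near the end encodes the glutamate-rich tail by which tubulin isotypes are usually told apart as proteins. The 3 differences leave the encoded amino acids unchanged, so the stretch shown does not tell Tubb2a and Tubb2b apart as proteins. Over the whole coding sequence Tuba1a and Tuba1b were 98.3% identical in 1356 bases, and Tubb2a and Tubb2b 96.5% identical in 1338 bases. Tubb2a (chr13:34074274-34078007, minus strand) and Tubb2b (chr13:34126748-34130466, minus strand) lie near each other. Of all stretches of 50 bases in the listed transcript, the share also found in another gene was 72.9% for Tuba1a, 73.8% for Tuba1b, 49.6% for Tubb2a, 39.3% for Tubb2b and 50.9% for Tubb4b. The share was 0.184% for Tubb4a, 1.24% for Kif5b and 0% for Tubb3, Kif5a, Kif5c, Map1b, Map2, Map4, Mapt, Dync1h1, Dync1li2 and Dynlt3. It was higher still for the dynein light chains Dynlt1b (83.2%) and Dynlt1f (93.1%), and 61.0% for Tuba1c and 56.8% for Tubb4b-ps1. Counts of these tubulins and of both Dynlt1 genes are therefore uncertain between copies.

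Depth differed widely. Outside 6 loci that collect ribosomal reads, HA libraries held 641378 to 6518495 counts, FT libraries with SCI only 71215 to 349734, those with hydrogel CT 4531 to 43399 and those with growth factors 3284 to 119843. The HA groups also differed without overlap in the share of all counts at the ribosomal-read locus Yam1: 87.8% to 93.1% with SCI only, 40.0% to 57.5% with hydrogel CT, 67.5% to 75.7% with growth factors. Outside the 6 loci the hydrogel CT libraries in HA, with 3412056 to 6518495 counts, were deeper than all others, which held 641378 to 2117234. The 59 genes together took 2370 to 59621 counts in HA, whereas the shallowest FT library (growth factors, number 1645) held 23. The FT library of number 1732, with growth factors, stood apart: the genes took 3.55% of its counts outside those loci, against 0.700% to 1.69% in the other FT libraries. Its summed astrocyte markers were the lowest of all FT libraries at 491 CPM, as were its oligodendrocyte markers at 285 CPM. Its neuron markers summed to 3360 CPM, below the 3636 CPM of growth factor library 1687. CPM, the usual depth-scaled count, was taken on the library size after TMM scaling, within HA, within FT, or over both fractions together where they are compared, and values on these 3 scales are not interchangeable.

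On a per-length scale (CPM per kilobase of transcript, scaled within HA, 10 libraries), Tuba1a had the highest level in HA, with a median of 56.4 and a range of 29.0 to 148. Tubb4a, a beta tubulin best known from oligodendrocytes, followed at 32.6 (19.0 to 66.4). Next came Map1b at a median of 19.0, Dync1li2 at 16.4, Tuba1b at 16.1, Tubb2b at 15.5, Dynlt3 at 13.9, Tubb2a at 13.3 and Kif5b at 12.2. The ranges of these 9 genes overlapped between neighbours in the order. As a ratio of highest to lowest, Dynlt3 varied most of them, from 2.21 to 86.2. The order depended on the treatment: with SCI only Tubb4a (median 40.4) came before Tuba1a (35.5), with overlapping ranges, and Dynlt3 was 15th with a median of 4.24. With hydrogel CT Tuba1a was first at 51.9 and Dynlt3 had 15.1, and with growth factors Tuba1a was first at 104 and Dynlt3 second at 68.5.

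In FT (scaled within FT, 13 libraries) the order of levels per kilobase differed. Map1b, a structural protein of growing axons, was first with a median of 80.0 and a range of 11.3 to 145. Tubb4a followed at 65.0 (16.7 to 127) and Tuba1a at 38.0, with a range from 0 to 725 whose top is library 1732. Dynlt3 had a median of 35.3, Tuba1b 35.0, Dync1li2 24.3, Tubb5 22.3, Dctn2 17.1 and Dctn4 16.9. Kif5a had a median of 12.4 and Kif5b of 10.5, the reverse of their order in HA. The ranges of these neighbours overlapped as well. Here too the order depended on the treatment, with Tuba1b first with SCI only (median 117), Map1b with hydrogel CT (74.4) and Tubb4a with growth factors (92.3).

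The 19 genes listed for HA and not for FT were mostly low and included all 7 listed mitotic kinesins (Kif4, Kif11, Kif14, Kif15, Kif18b, Kif20b and Kif22), which move and shape the spindle. The gamma tubulin Tubg1, which nucleates microtubules, was also listed for HA alone, as were Dctn6, Dync1i2, Dync2li1, Dynll2, Dynlrb2, Dynlt1b, Kif1bp, Kif1c, Kif21b, Kif26a and Tubb4b-ps1. Their counts summed over all 10 HA libraries ran from 26 for Kif1c to 565 for Dync2li1. FT libraries were shallower, and the FT table begins at 11 counts per row, so the absence of a gene from it says little about its level in flow-through RNA.

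HA and FT were compared in the 10 title numbers that have both fractions, with treatment as a term. Precipitated RNA carried more Tubb2b, Tuba1a, Kif5b and Dync1li2, and flow-through RNA more Map2, Map4 and Kif5a. Of 32 genes tested, 4 were higher in HA and 3 lower, 7 in all or 21.9%, against 20.6% of the 3295 genes tested. The share of calls is thus near that of the whole table. The median log2 difference (HA minus FT) was 0.30 over the 32 genes and 0.28 over all genes, with 18 positive and 14 negative. No gene of the 32 had HA libraries that were all on one side of all FT libraries, as 2.12% of all genes did. With DESeq2 size factors as the scaling, 1 gene was higher and 3 lower, since the calls of Kif5b, Dync1li2 and Tuba1a missed the threshold.

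**Figure D1:**
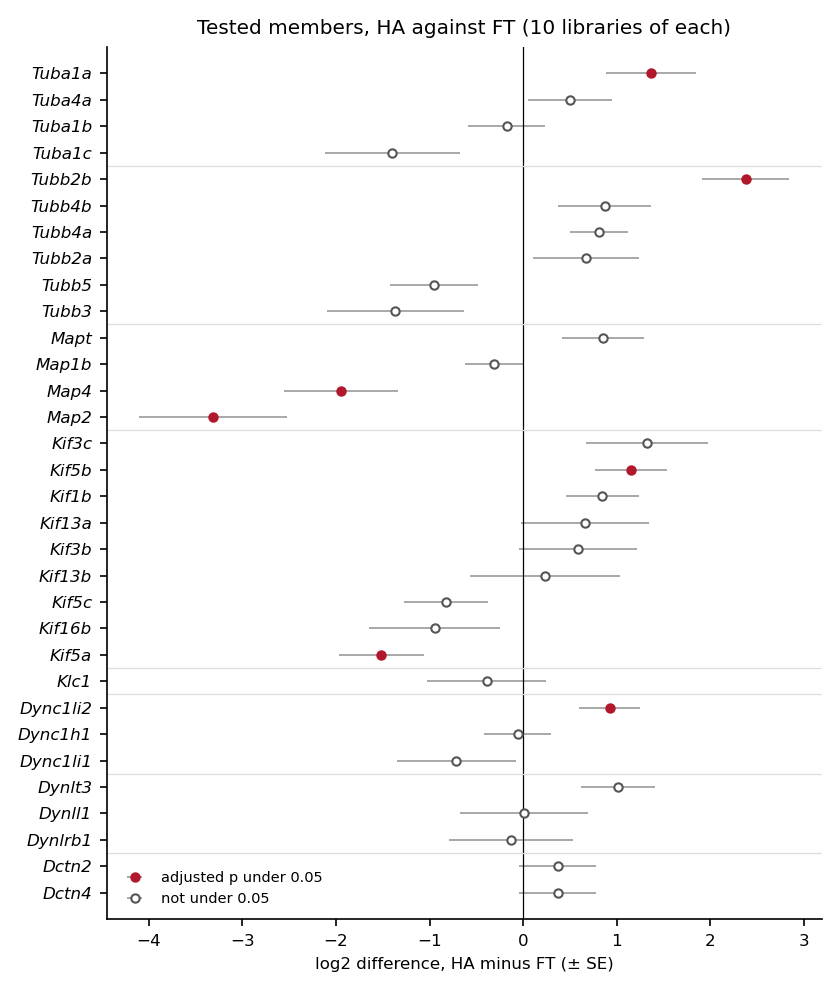
The 32 tested genes are plotted by log2 difference, HA minus FT, with bars of 1 standard error, grouped by subfamily; filled points have an adjusted p under 0.05 in edgeR. The 7 filled points run from Map2 at -3.31 to Tubb2b at 2.37, and both signs occur among the alpha tubulins, beta tubulins, structural proteins and kinesins.

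Tubb2b, a beta tubulin of neural progenitors and developing brain, gave the clearest difference among the tubulins. Its level in HA (scaled over both fractions) ran from 16.0 to 137 CPM with a median of 56.9, and in FT from 0 to 88.2 with a median of 4.97. Every one of the 10 title numbers was higher in HA, and only library 1732 exceeded 10 CPM in FT. On the log2 scale the difference was 2.37 (SE 0.47, edgeR adjusted p = 0.000283).

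Tuba1a, the main alpha tubulin of the nervous system, ran from 84.8 to 493 CPM in HA (median 167) and from 4.61 to 659 CPM in FT (median 40.2). It was higher in HA in 9 of 10 numbers, the exception being 1732, whose FT library held 972 Tuba1a counts. The log2 difference was 1.37 (SE 0.48, adjusted p = 0.0385) and rose to 2.39 without number 1732 (adjusted p = 5.3e-05). The call was lost, at adjusted p between 0.0578 and 0.0998, without number 1724, 1759, 1762, 9596, 9843, 9874 or 9935, while the log2 difference stayed between 1.22 and 1.42. Its near copy Tuba1b averaged 59.7 ± 51.0 CPM in HA and 63.7 ± 37.7 in FT (SD, n = 10), with a log2 difference of -0.18 (adjusted p = 0.807).

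The other tubulins did not pass. Tubb4a averaged 137 ± 54.7 CPM in HA and 75.8 ± 15.8 in FT (SD, n = 10), was higher in HA in 8 of 10 numbers and missed the threshold at 0.81 log2 (SE 0.31, adjusted p = 0.0625). Tubb4a was called without number 1687 (0.0259), 1732 (0.0311) or 1762 (0.0394). It was also called with the ribosomal-read loci left out (0.0497), with no filter on low counts (0.0162), with both other groupings of that filter (0.0165 and 0.0184), and in the 4 SCI only numbers alone (log2 difference 1.39, 0.0132). Tubb2a, the near copy of Tubb2b, was higher in HA in 9 of 10 numbers, with a log2 difference of 0.67 (adjusted p = 0.449), and Tubb4b had 0.87 (0.225) and Tuba4a 0.50 (0.477). Tubb5, Tubb3 (the beta tubulin used as a neuron marker) and Tuba1c, singled out after their values were seen, had negative differences of -0.95, -1.37 and -1.40 (adjusted p = 0.158, 0.190 and 0.178).

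Of the structural proteins, Map2, which stabilises microtubules of dendrites, was lower in HA than in FT. Its HA libraries ran from 0 to 13.0 CPM with a median of 1.18, and its FT libraries from 4.61 to 52.2 with a median of 12.1. It was lower in HA in 9 of 10 numbers, all but 1724. The hydrogel CT libraries 1724 and 1762 were the highest in HA, at 11.6 and 13.0 CPM. Of the Map2 counts with hydrogel CT in HA, 424 came from a transcript that is not listed for FT and 516 from the transcript listed for both. On the log2 scale the difference was -3.31 (SE 0.79, adjusted p = 0.00217) and -2.47 without number 1732. FT counts of Map2 were few, from 1 to 77 per library.

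Map4, the structural protein of cells outside the nervous system as well as in it, was also lower in HA. It ran from 0.186 to 21.6 CPM in HA (median 4.31) and from 3.71 to 29.9 CPM in FT (median 23.0), and was lower in HA in 9 of 10 numbers. The log2 difference was -1.94 (SE 0.61, adjusted p = 0.0204), and the call was lost without number 9935 (-1.77, adjusted p = 0.0561) and in the 4 SCI only numbers alone (-2.27, 0.0731). Map1b averaged 444 ± 243 CPM in HA and 545 ± 136 in FT (SD, n = 10), with a log2 difference of -0.31 (SE 0.31, adjusted p = 0.522). Mapt, the gene of the axonal protein tau, was higher in HA in 8 of 10 numbers without passing (0.85, adjusted p = 0.173). Map1a was not tested, with 0 to 53 counts per library in HA and 0 to 25 in FT.

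**Figure D2:**
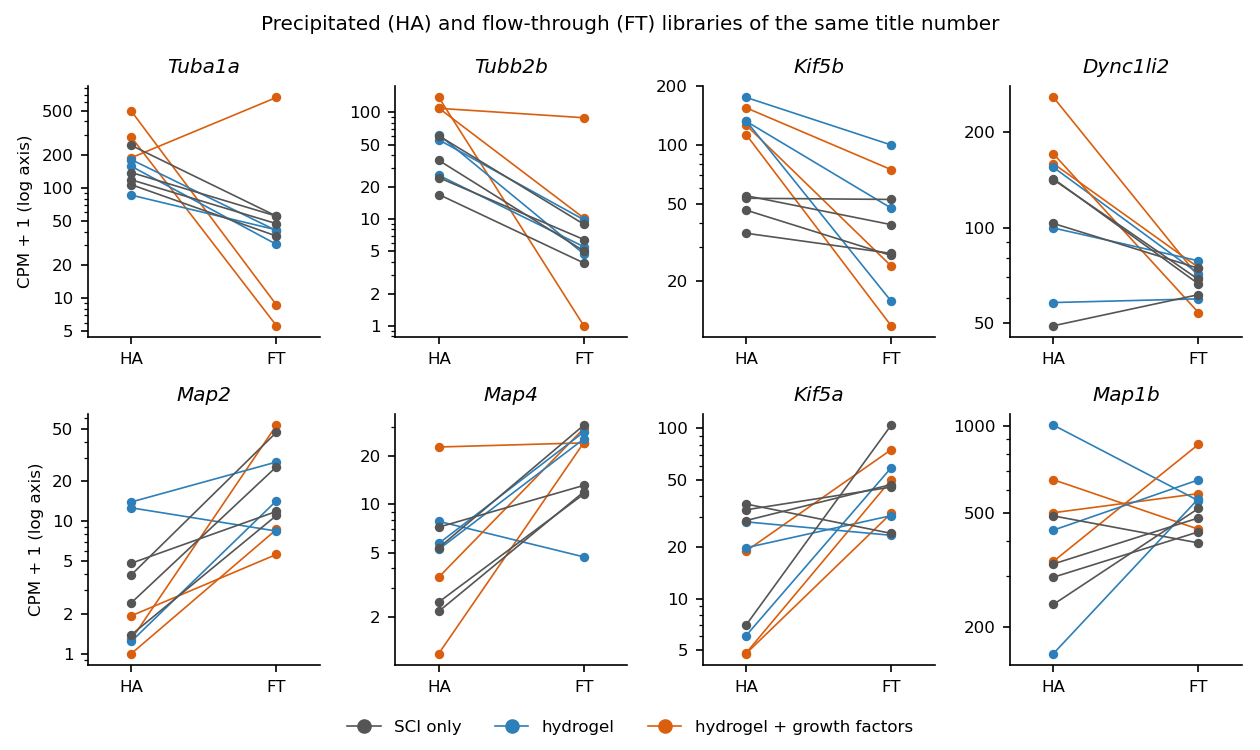
Each line joins the HA and FT library of 1 title number, with CPM scaled over both fractions plus 1 on a log axis and colours for treatment. Tubb2b and Kif5b fall from HA to FT in all 10 numbers, Map2 and Map4 rise in 9 of 10, and Map1b, which did not pass, goes both ways; the rising Tuba1a line is number 1732.

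The 3 heavy chains of kinesin-1, the motor that carries organelles and vesicles outward, differed in direction. Kif5b (chromosome 18), the form found in most cell types, ran from 34.3 to 174 CPM in HA (median 119) and from 10.9 to 99.1 in FT (median 32.5). It was higher in HA in 10 of 10 numbers, with log2 HA minus FT at 1.15 (SE 0.38, adjusted p = 0.0294). The call was lost without number 1724 (1.06, adjusted p = 0.0546) or 1759 (1.07, 0.0764). In the 4 SCI only numbers alone the difference was 0.40 (adjusted p = 0.605), and the 4 HA libraries with SCI only, at 34.3 to 54.0 CPM, were below the 6 with a hydrogel, at 112 to 174. Whether the HA to FT difference itself differed between treatments was not tested.

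Kif5a (chr10:127225696-127263348, minus strand), the form of neurons, ran from 3.76 to 34.9 CPM in HA (median 18.5) and from 22.5 to 103 in FT (median 44.9). It was lower in HA in 8 of 10 numbers, at -1.52 on the log2 scale (SE 0.45, adjusted p = 0.0148), and the call was lost without number 9935 (-1.24, 0.0758). It was also lost with no filter on low counts (-1.22, 0.0556), with that filter grouped by fraction and treatment (-1.23, 0.0541), and in the 4 SCI only numbers alone (-1.06, 0.245). Kif5c, also enriched in neurons, averaged 23.2 ± 14.4 CPM in HA and 40.2 ± 28.8 in FT (SD, n = 10), with a log2 difference of -0.83 (adjusted p = 0.202).

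The remaining kinesins gave no call under the chosen settings; Kif3b was called in the 4 SCI only numbers alone. Kif1b, which carries synaptic vesicle precursors and mitochondria, averaged 55.9 ± 33.0 CPM in HA and 30.1 ± 14.4 in FT, with a log2 difference of 0.84 (adjusted p = 0.123). It was called with no filter on low counts (1.10, 0.047) and with that filter grouped by fraction and treatment (1.09, 0.0485). The HA table lists more Kif1b transcripts than that of FT, and with transcripts listed in both tables alone the difference was 0.44. Kif13b had 0.23 (adjusted p = 0.875) and the kinesin light chain Klc1, which links kinesin-1 to cargo, -0.39 (0.716). Over the fixed list of cargo kinesins and light chains, 12 of 18 were listed in both tables, 10 were tested, 1 was higher and 1 lower, a share like the 20.6% of all genes. Kif3a, a motor of intraflagellar transport, and Klc4 were listed but too low to test.

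Among dynein and dynactin subunits, Dync1li2 (chr8:104417680-104443047, minus strand), a light intermediate chain that binds cargo adaptors, ran from 48.0 to 257 CPM in HA (median 141). In FT it stayed between 52.9 and 77.5 CPM (median 68.3), the narrowest FT range among the called genes relative to its level. It was higher in HA in 8 of 10 numbers, with log2 HA minus FT at 0.92 (SE 0.32, adjusted p = 0.0382). This call was lost in the 4 SCI only numbers alone (0.69, adjusted p = 0.279). It was lost when any 1 of 6 numbers was left out (1685, 1687, 1724, 1759, 9596 and 9843), at adjusted p between 0.0539 and 0.0861 and log2 differences of 0.88 to 0.95. With the title number as a replicate block it was 0.84 (adjusted p = 0.0910).

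The motor subunit Dync1h1 itself averaged 56.8 ± 23.4 CPM in HA and 59.5 ± 38.9 in FT (SD, n = 10), with a log2 difference of -0.06 (adjusted p = 0.932). The other light intermediate chain, Dync1li1, had -0.72 (0.474), the light chains Dynll1 and Dynlrb1 0.01 (0.994) and -0.13 (0.916), and the dynactin subunits Dctn2 and Dctn4 0.37 each (0.578 and 0.576). The sign of Dynll1 turned with DESeq2 size factors. Dynlt3, a light chain of the Tctex family, averaged 107 ± 106 CPM in HA and 41.6 ± 32.4 in FT, with a log2 difference of 1.01 (SE 0.40, adjusted p = 0.0658); with no filter on low counts (0.0238) and with both other groupings of it (0.0242 and 0.0278) it was called. Of the cytoplasmic dynein 1 and dynactin list, 11 of 20 were listed in both tables, 8 were tested, 1 was higher and none lower, against 20.6% of all genes called.

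The make-up of each family within a library, which needs no scaling between libraries, was described after the values had been seen, in libraries with at least 20 counts of the family, as percent of counts per kilobase. Among kinesin-1 heavy chains Kif5b took a median of 68.7% in HA (47.0% to 90.0%, 10 libraries) and 31.8% in FT (7.29% to 65.0%, 8 libraries), and it was the larger in HA in all 8 numbers that could be compared. Kif5a took 8.86% in HA (1.65% to 42.3%) and 34.8% in FT (14.2% to 53.8%), and Kif5c 12.5% and 27.7%, each lower in HA in 7 of 8 numbers. In HA the share of Kif5a was 29.6%, 34.6%, 42.3% and 6.01% in the SCI only libraries 9596, 9843, 9874 and 9935. It was 1.65% to 11.2% in the 6 hydrogel libraries, a range that includes 9935, and a difference between treatments was not tested. The first 3 SCI only libraries lie within the FT range. Among alpha tubulins Tuba1a took 70.0% in HA (59.3% to 82.3%) and 33.7% in FT (23.8% to 83.6%), whereas Tuba1b took 20.7% in HA and a larger share in FT in 7 of 8 numbers. Number 1732 was the exception for both, with Tuba1a at 83.6% in FT.

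Among beta tubulins Tubb4a took the largest median share in either fraction, 42.9% in HA and 45.1% in FT. Tubb2b took 17.2% in HA and 3.29% in FT, higher in HA in 9 of 9 numbers. Tubb5, a beta tubulin of dividing and immune cells as well as glia, took 5.51% in HA and 20.6% in FT, lower in HA in 9 of 9 numbers. Tubb3 took 1.66% and 6.56%. The shares within a family are not independent, since a rise of 1 member lowers the others.

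**Figure D3:**
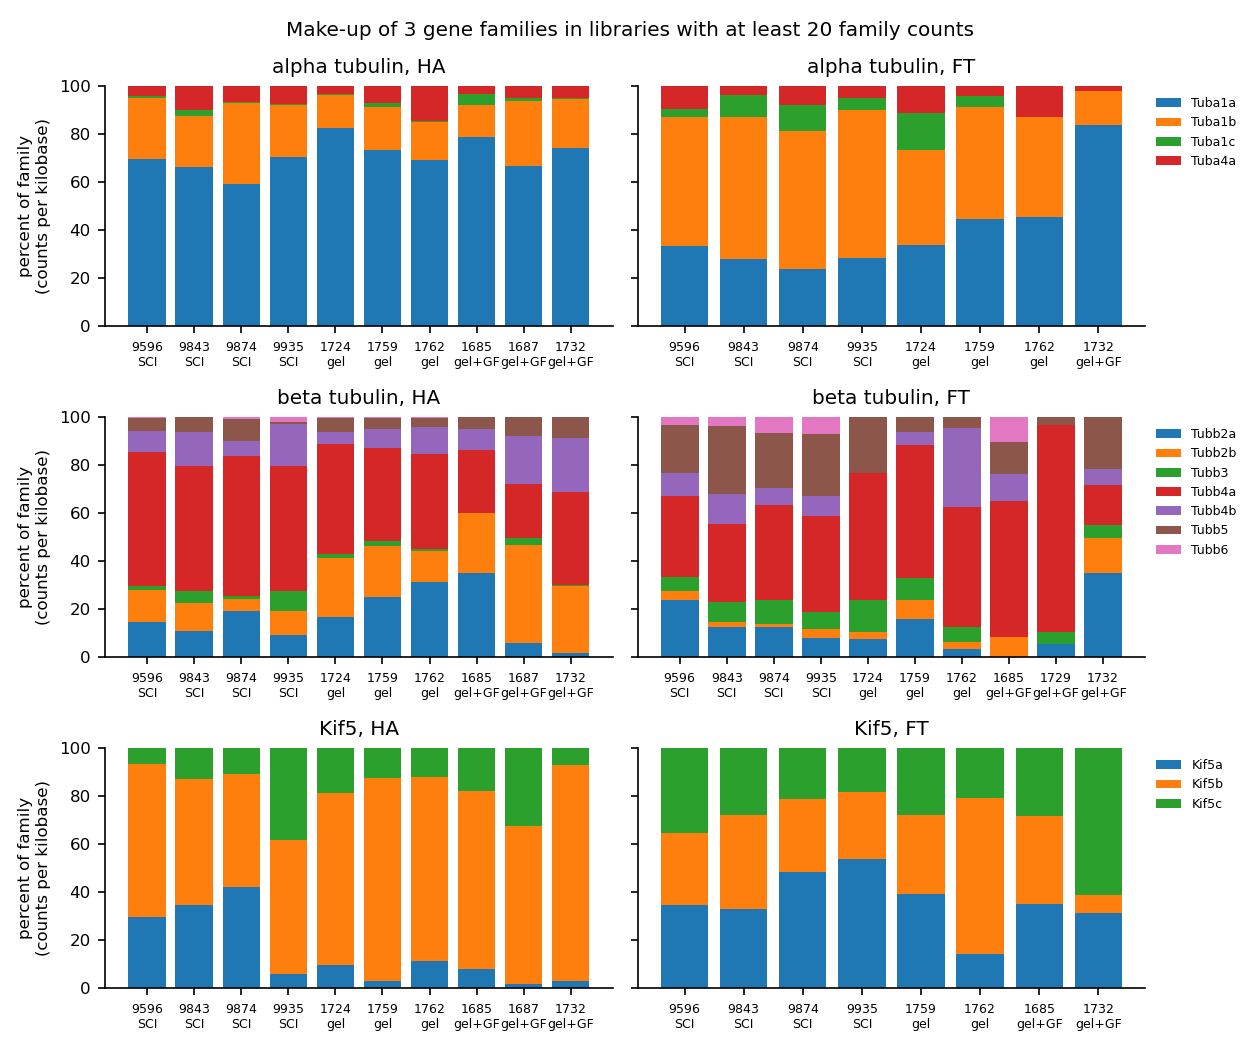
Stacked bars give the percent of each family's counts per kilobase in every library with at least 20 family counts, with HA on the left and FT on the right; below each bar stand the title number and the treatment (SCI, SCI only; gel, hydrogel CT; gel+GF, hydrogel with growth factors). Kif5b takes a median of 68.7% of kinesin-1 heavy chains in HA and 31.8% in FT, and Tubb2b 17.2% and 3.29% of the beta tubulins.

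Markers of several cell types moved with the fractions. Of all 3295 genes tested 20.6% were called, 435 higher in HA and 243 lower. Of the astrocyte list, 9 of 11 tested genes were higher in HA and none lower (summed level 4262 to 8929 CPM in HA, 248 to 2260 in FT). Oligodendrocyte progenitor markers were higher in HA in 5 of 6 (264 to 851 CPM in HA, 23.1 to 160 in FT), and oligodendrocyte markers in 3 of 9 (917 to 2233 and 144 to 1258). Of the lists given here, that of oligodendrocytes was nearest to the share of all genes. Neuron markers were lower in HA in 7 of 9 (77.3 to 441 and 457 to 1695), and microglia and macrophage markers in 7 of 8 (17.4 to 849 and 91.6 to 7830). The defining neuron markers Syt1 and Rbfox3, the microglial Csf1r, Aif1 and Itgam, and all endothelial markers were not listed in both tables. The part of cell mixture in the tubulin, kinesin and dynein differences was not tested, and in such bulk fractions fewer cells of a type and less RNA per cell cannot be told apart.

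Of 48 genes for microtubule tips, stability and severing, 25 were listed in both tables, 21 were tested, 2 were higher in HA and 2 lower, which is near the 20.6% called over all genes. Mapre1 (EB1, which tracks growing plus ends) averaged 165 ± 74.4 CPM in HA and 63.4 ± 41.6 in FT (SD, n = 10; log2 difference 1.23, adjusted p = 0.0184). Tppp3, a tubulin polymerisation promoter, rose by 1.73 (adjusted p = 0.0189). The tubulin-binding stathmins Stmn2 and Stmn3 fell by 2.78 (0.00266) and 1.49 (0.0194), and Stmn2, which also stands in the neuron list, averaged 9.85 ± 12.1 CPM in HA and 77.4 ± 145 in FT. Of 49 genes for tubulin folding and modification, nucleation and motor adaptors, 20 were listed, 13 tested, none higher and 1 lower, against 20.6% of all genes. It was the tubulin cofactor Tbca (-1.40, adjusted p = 0.0425). Neither list held a call in any comparison of treatments, where 33 and 23 of them were tested in HA and 7 and 3 in FT.

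The treatments were compared with each other within each fraction. Comparisons with SCI only also set 1 range of title numbers against another. Dynlt3 was the only gene of the group that passed in any comparison of treatments. In HA (scaled within HA) it measured 20.8, 9.26, 4.82 and 9.21 CPM in the SCI only libraries 9596, 9843, 9874 and 9935. It measured 32.9, 27.5 and 96.1 CPM in the hydrogel CT libraries 1724, 1759 and 1762, and 149, 105 and 188 CPM in the growth factor libraries 1685, 1687 and 1732. No library of one treatment overlapped with those of another, as was also so for the Yam1 share given above, in another order; the part of that share in the result was not tested. Growth factors against SCI only gave a log2 difference of 3.74 (SE 0.63, edgeR adjusted p = 0.0222), which missed the threshold without SCI only number 9843 (0.105), 9874 (0.123) or 9935 (0.0965), at log2 differences of 3.47 to 3.66. Hydrogel CT against SCI only gave 2.24 (adjusted p = 0.150; 1.46 without 1762), and growth factors against hydrogel CT 1.5 (0.335). The 3 comparisons share libraries and are not independent of each other.

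Dynlt3 (chrX:9654267-9663003, minus strand) was the 1 gene called of 50 tested between growth factors and SCI only, against 0.436% of 6654 genes in that comparison. The median log2 difference was 0.10 over the 50 genes and 0.12 over all genes. By position of the libraries, 7 of the 50 did not overlap between these groups (Dctn2, Dync1li2, Dync2li1, Dynlt3, Kif5b, Tubb2b and Tubb4b), against 14.2% of all genes, so this count is no result about the group. Of the cell type lists, that of oligodendrocytes held 1 gene called higher in each HA comparison with SCI only, and the others held none in HA comparisons of treatments. Astrocyte markers summed to 2261 to 3250 CPM with SCI only, 2772 to 5505 in hydrogel CT libraries and 3543 to 4675 in growth factor libraries, and their part in the Dynlt3 difference was not tested.

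Kif5b stood apart from SCI only in both hydrogel groups without passing. It measured 31.2, 22.6, 18.7 and 26.8 CPM with SCI only, 79.4, 80.7 and 108 with hydrogel CT, and 101, 68.1 and 68.5 with growth factors (libraries in the order given for Dynlt3). All 6 hydrogel libraries were above all 4 SCI only libraries, and the hydrogel groups overlapped. On the log2 scale the difference was 1.85 (SE 0.48, adjusted p = 0.143) for hydrogel CT and 1.67 (SE 0.48, adjusted p = 0.0984) for growth factors against SCI only, and -0.17 (adjusted p = 0.912) between the hydrogel groups. DESeq2 gave adjusted p = 0.0181 and 0.0120 for the differences from SCI only, and a fit of the 2 groups alone gave 0.0330 for hydrogel CT.

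Between hydrogel CT and SCI only in HA, no gene of the 50 passed, against 0.195% of 6654 genes, and 5 had an unadjusted p under 0.05. Groups did not overlap for 9 of 50, against 18.9% of all genes. Besides Kif5b and Dynlt3, Kif13b, a motor of vesicle transport, had the smallest p: 10.6, 19.5, 4.02 and 12 CPM with SCI only and 0.564, 4.51 and 0.386 CPM with hydrogel CT, where 1759 overlapped SCI only. Its log2 difference was -2.66 (SE 1.10, adjusted p = 0.319), and -4.56 without 1759. Dync1h1 measured 32.6, 30.9, 43.1 and 46.9 CPM with SCI only, 12.3, 21.2 and 16.3 with hydrogel CT and 46.0, 29.3 and 44.5 with growth factors. The hydrogel CT libraries lay below all others, with log2 differences of -1.21 from SCI only (adjusted p = 0.369) and 1.27 for growth factors against hydrogel CT (0.354). Oligodendrocyte progenitor markers (6 of 8 listed, without Pdgfra and Lhfpl3) were also lowest with hydrogel CT, at a summed 163 to 256 CPM against 339 to 456 with SCI only and 302 to 452 with growth factors. Their part in the Dync1h1 values, and that of the greater depth of hydrogel CT libraries, was not tested. The dynactin subunit Dctn2 measured 21.8 to 29.4 CPM with SCI only, 9.54 to 10.1 in hydrogel CT libraries and 3.57 to 15 with growth factors. Its log2 differences from SCI only were -1.37 (adjusted p = 0.422) and -1.63 (0.192).

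**Figure D4:**
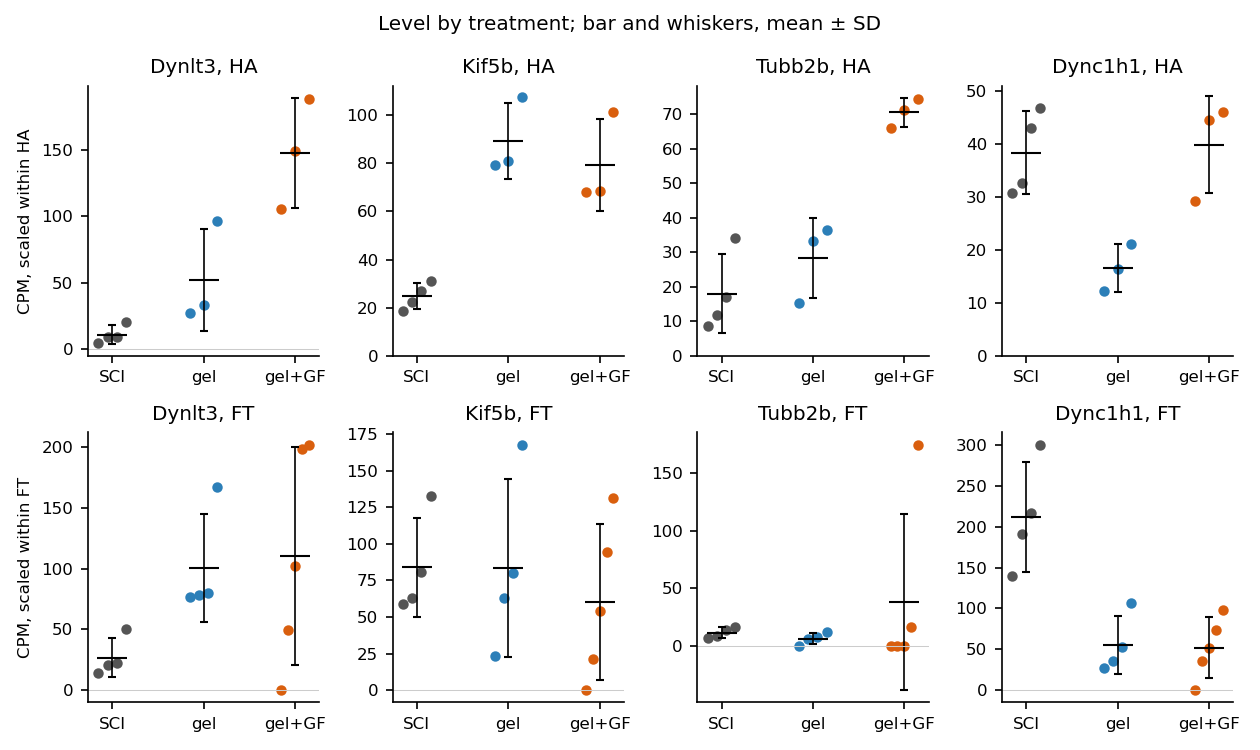
Points are libraries, bars and whiskers the mean and SD, for Dynlt3, Kif5b, Tubb2b and Dync1h1, with HA above (CPM scaled within HA; 4, 3 and 3 libraries) and FT below (CPM scaled within FT; 4, 4 and 5 libraries); gel is hydrogel CT and gel+GF hydrogel with growth factors. HA Dynlt3 ranges from 4.82 to 20.8 with SCI only, 27.5 to 96.1 for hydrogel CT and 105 to 188 for growth factors, without overlap.

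Growth factors against hydrogel CT, where the title numbers of both groups lie in 1 range, gave no call among the 50 genes in HA. Over all 6654 genes 0.0902% passed, and 6 of the 50 had an unadjusted p under 0.05. Groups did not overlap for 12 of 50, against 18.4% of all genes. Tubb4b, a broadly used beta tubulin that is also prominent in cilia, measured 5.43, 9.38 and 9.38 CPM with hydrogel CT and 18.6, 26.5 and 38.6 with growth factors. Its log2 difference was 1.79 (SE 0.69, adjusted p = 0.278), and DESeq2 gave 0.0346. Tuba1b measured 15.2, 26.1 and 11.4 CPM with hydrogel CT and 30.7, 106 and 30.0 with growth factors, a difference of 1.66 (adjusted p = 0.309; 0.77 without 1687), and Tuba1a 93.5, 110 and 52.3 against 187, 267 and 114, a difference of 1.15 (0.374). Neither Tuba1a nor Tuba1b overlapped between these groups. All 4 alpha tubulins and 6 of 8 beta tubulins had positive differences, with medians of 1.41 and 0.60 against -0.14 over all genes, and none passed; with DESeq2 size factors the median of all genes moved by 0.16. The 8 include the pseudogene Tubb4b-ps1, which shares reads with Tubb4b. Tuba1a, Tuba1b and Tuba1c share 72.9%, 73.8% and 61.0% of their 50-base stretches with other genes, and Tubb2a and Tubb2b 49.6% and 39.3%. The signs within these families are therefore not separate observations. All 6 oligodendrocyte progenitor markers were positive too (median 0.78, none called), with summed levels that did not overlap, and their part in the tubulin values was not tested.

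Tubb2b in HA measured 34.3, 17.2, 8.72 and 12 CPM with SCI only, 36.6, 33.4 and 15.3 with hydrogel CT and 71.3, 74.5 and 66.1 with growth factors. The growth factor libraries were above all others, and hydrogel CT overlapped SCI only. The log2 difference was 1.96 from SCI only (SE 0.59, adjusted p = 0.108; DESeq2 0.0243) and 1.31 from hydrogel CT (adjusted p = 0.381). Map2 in HA measured 6.99, 0.146 and 8.01 CPM with hydrogel CT and 0.609, 0 and 0.172 with growth factors, and 1759 overlapped the growth factor group. On the log2 scale the difference was -4.09 (SE 1.66, adjusted p = 0.303). With hydrogel CT, 424 counts of Map2 came from a transcript without an annotated coding sequence and 516 from the coding transcript. With growth factors these were 0 and 12. Map1b averaged 324 ± 258 CPM with hydrogel CT (n = 3), 295 ± 78.1 with growth factors (n = 3) and 179 ± 50.3 with SCI only (SD, n = 4), with no difference under an adjusted p of 0.450.

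The mitotic kinesins were near the limit of detection. Kif11, the motor that pushes spindle poles apart, held 63 to 218 counts in the hydrogel CT libraries, 2 to 5 in those with growth factors and 0 to 5 with SCI only. In CPM these were 1.32 to 2.80, 0.172 to 0.765 and 0 to 0.964. Kif11 thus entered the test through the hydrogel CT libraries, so its higher level there is no separate result. Those libraries were also the deepest in HA, and the part of depth was not tested. The log2 differences of Kif11 for hydrogel CT were 2.67 from SCI only (SE 1.44, adjusted p = 0.458) and -2.39 for growth factors against hydrogel CT (SE 1.56, adjusted p = 0.519). Of the 5 mitotic kinesins tested, none passed in any comparison. The filter can admit a gene through 1 group where it is high, and such a gene then looks lower in the others. The signs of this list are therefore no result. The proliferation markers, 6 of 8 listed, summed to 1.77 to 19.1 CPM with hydrogel CT, 5.07 to 34.4 with growth factors and 2.79 to 16.0 with SCI only. The adaptor Kif1bp had a log2 difference of 4.58 between growth factors and SCI only (SE 1.68, adjusted p = 0.155), which rested on library 1732 at 16.8 CPM: the other 2 growth factor libraries held 1.77 and 0 CPM, and without 1732 the value was 1.89.

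**Figure D5:**
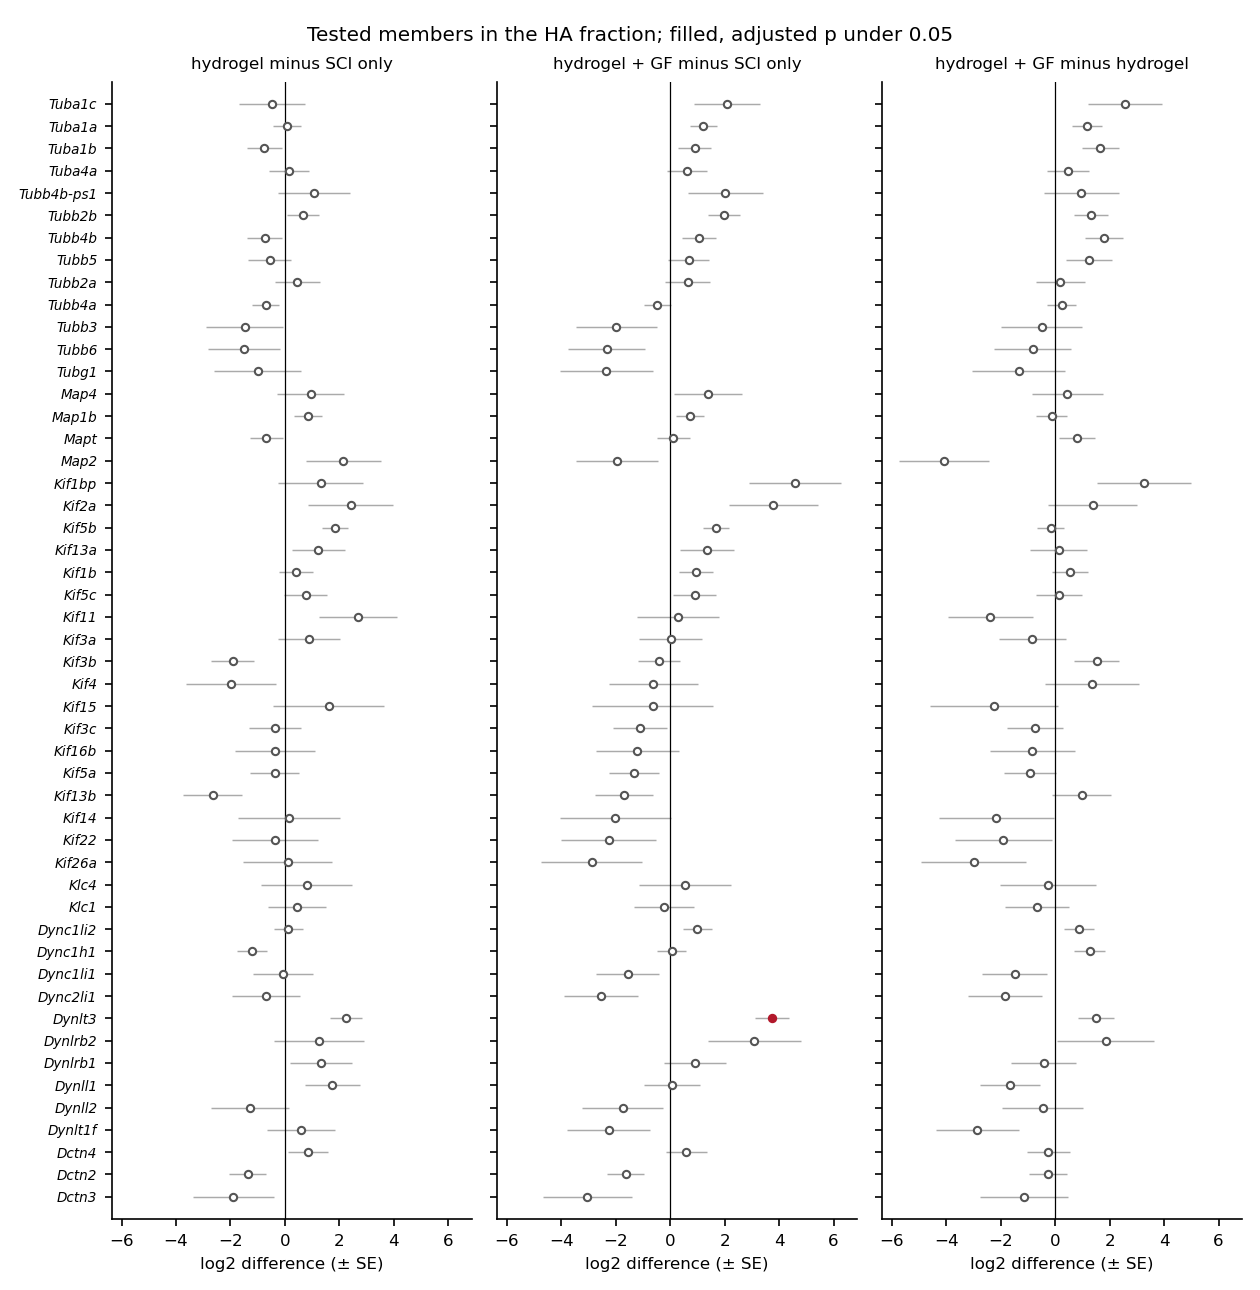
The 50 tested genes are plotted by log2 difference in HA with bars of 1 standard error for the 3 comparisons of treatments (GF, growth factors), ordered within subfamilies by the middle panel; a filled point has an adjusted p under 0.05 in edgeR. Dynlt3 at 3.74 in growth factors minus SCI only is the single filled point of the 150 shown.

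In FT, 13 of the 40 listed genes had enough counts to be tested among 610 genes: Tuba1a, Tuba1b, Tubb4a, Map1b, Map4, Kif1b, Kif5a, Kif5b, Kif5c, Dync1h1, Dync1li2, Dynlt3 and Dctn4. None passed in any comparison. The background was 3.11% of genes called between hydrogel CT and SCI only, 3.77% between growth factors and SCI only and 0.0% between growth factors and hydrogel CT, where 23 genes had an unadjusted p under 0.05 and DESeq2 also called 0. With DESeq2 size factors the median of all genes moved by 0.30 for hydrogel CT and by 0.44 for growth factors against SCI only, and the signs of Kif1b (both comparisons), Kif5b and Map1b (growth factors) turned with it, so small FT differences from SCI only have no fixed direction.

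Dync1h1 (chr12:110601452-110666945, plus strand) measured 300, 217, 192 and 139 CPM in FT with SCI only (scaled within FT), 26.7, 106, 36.1 and 53.3 with hydrogel CT and 74.2, 98.5, 36.2, 0 and 51.1 with growth factors. All SCI only libraries were above all hydrogel libraries, which held 0 to 38 counts of the gene. The log2 difference was -1.86 for hydrogel CT (SE 0.68, adjusted p = 0.153) and -2.03 for growth factors against SCI only (SE 0.66, adjusted p = 0.0944; DESeq2 0.0443). Groups did not overlap for 5 of 13 genes between hydrogel CT and SCI only (Dync1h1, Dync1li2, Dynlt3, Tuba1a and Tuba1b), against 19.7% of all genes. They did not overlap for 1 of 13 between growth factors and SCI only, Dync1h1, against 10.7%, and for none between growth factors and hydrogel CT, against 0.656%.

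Dynlt3 in FT measured 49.9, 20.4, 22.5 and 13.9 CPM with SCI only and 80.1, 76.8, 78.2 and 168 with hydrogel CT, where every library was above SCI only. With growth factors it measured 0, 49.2, 199, 202 and 102 CPM, the 0 being the shallow library 1645, in which 0 counts of 23 for the group were found. On the log2 scale the difference was 1.82 for hydrogel CT (SE 0.69, adjusted p = 0.159) and 1.99 for growth factors against SCI only (SE 0.68, adjusted p = 0.121). Without library 1645 the latter was 2.36 (adjusted p = 0.0384), and DESeq2 gave adjusted p = 0.0139 and 0.00230. The positive direction was thus shared by HA and FT, on 0 to 76 counts per FT library.

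Tuba1b in FT measured 179 to 293 CPM with SCI only, 26.7 to 61.0 in hydrogel CT libraries and 0 to 218 in growth factor libraries, the highest being library 1732. The log2 differences from SCI only were -2.08 (SE 0.77, adjusted p = 0.153) and -1.44 (SE 0.69, adjusted p = 0.252). The latter became -0.98, -0.96 and -0.95 without growth factor library 1645, 1685 and 1729. Tuba1a in FT measured 83.4 to 139 CPM with SCI only, 47.3 to 68.6 with hydrogel CT and 0, 8.21, 18.1, 94.3 and 1310 with growth factors. Its difference between growth factors and hydrogel CT was 2.48 (SE 0.99, adjusted p = 0.956) and became -0.82 without library 1732. Kif5a and Kif5c had 0.74 and 0.79 in the same comparison (adjusted p = 0.956 for both). Microglia and macrophage markers in FT summed to 7032 to 17626 CPM with SCI only, 160 to 3640 in hydrogel CT libraries and 108 to 2115 in growth factor libraries. Of the 9 summed, 5 were tested. Against SCI only, 3 were called lower and 1 higher with growth factors (3.77% of all genes called), and 1 lower with hydrogel CT (3.11%). Neuron markers summed to 1028 to 2370, 614 to 2743 and 779 to 3636 CPM, and the part of either in these values was not tested.

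The authors' deposited table, which tests each transcript row and not genes, gives its own fold changes. In HA, the authors' deposited table has Dynlt3 at log2 3.78 (false discovery rate 7.68e-05) and Kif5b at 1.75 (0.0387) for growth factors against SCI only, 2 of 72 rows of the group, where 3.97% of all rows pass 0.05. For hydrogel CT against SCI only the authors' deposited table has Dynlt3 at 2.38 (0.0287) and Kif5b at 2.02 (0.0228), where 1.44% of rows pass, and none of the 72 rows passes between the hydrogel groups, where 0.597% do. In FT, the authors' deposited table passes 3 of 40 rows for growth factors against SCI only (Dctn1, Dync1h1 and Kif13b; 9.08% of all rows) and 5 for hydrogel CT against SCI only (Dctn1, Kif3c, Map1a, Mapt and Tubb6; 8.20%), all negative, and none between the hydrogel groups. Of these FT genes only Dync1h1 had enough counts for the gene test.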

How the data were processed

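RNA-seq libraries of precipitated (HA, 10) and flow-through (FT, 13) RNA were used, prepared with NuGEN Ovation RNA-Seq V2 per the labels' protocols. The deposited tables hold raw counts per transcript and sample, beside the authors' log2 fold changes and p-values with false discovery rates, per the file headers. The submitters' processing notes name CASAVA 1.8.2, edgeR and mm10. For aligner, counter, annotation and strand setting the sources used here give nothing, so overlapping and antisense genes cannot be separated. Of the columns, 45 of per-sample values were not used. Rows without a symbol (0.00272% to 0.319% of counts) stayed out of library sizes and tests.

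Counts were summed per symbol and tested with edgeR 4.0.16 (R 4.3.3): TMM scaling, filterByExpr with a minimum count of 10, quasi-likelihood test, Benjamini-Hochberg adjustment over all tested genes, threshold 0.05. The treatments were compared in 1 model per fraction. HA and FT were compared over 10 title numbers with treatment as a term. SE is the log2 difference divided by the square root of F. For HA against FT the low-count filter was grouped by fraction, kept from 3 groupings tried on the basis of simulated data and earlier processing. The simulation as kept uses this grouping alone, so it does not compare the 3. The other 2 are given as alternatives chosen after seeing the data. Alternatives used DESeq2 1.42.0, its size factors, no filter, the 6 ribosomal-read loci left out, the 2 groups alone, a replicate block, transcripts listed in both tables, and each library left out. The scripts were tested on simulated data. Sequences and coordinates came from GENCODE M21 (GRCm38), which matched 98.3% of HA and 99.1% of FT rows.

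The genes, lists and tests were chosen with earlier results of these data known. Named genes are those called in any comparison, the 3 with most counts per subfamily, the 5 structural proteins, Dynlt3, Kif1a, Kif1b, Kif3a, Kif5a, Kif5b, Kif5c and Kif11 where listed, and in each comparison the 3 smallest p not called. Others (Tuba1c, Tubb3 and Tubb5 among them) were named after their values were seen. Library totals ran from 7940025 to 24337017 counts in HA and from 19607 to 5432938 in FT, and no pair of libraries agreed within counting noise.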

Additional observations from a re-analysis of the deposited data

Results flagged for a closer look

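Single libraries far from the rest of their group (Dixon's criterion at 95%, groups of 4 or 5 libraries with at least 10 counts in 1 of them) were found 20 times in 96 groups. The criterion's rate of about 1 in 20 groups by chance holds for normal values and not for low counts. A deep library can also both admit a group and stand apart in it, so the 20 cannot be set against chance. Of the 20 found, 7 were the FT library of number 1732 with growth factors, which held 1310 CPM of Tuba1a, 315 of Tubb2a, 175 of Tubb2b, 114 of Mapt, 59.2 of Tubb4b, 39.0 of Dync1li1 and 22.9 of Kif3a (scaled within FT), each the highest of its group. Its neuron marker sum was 3360 CPM, below the 3636 CPM of library 1687 in the same group, and its astrocyte marker sum 491 CPM.

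In FT with SCI only, number 9596 stood apart for Dync1li1 (41.5 CPM) and Dynll1 (20.4 CPM), and number 9935 for Dync1li2 (188 CPM) and Map4 (76.7 CPM). In FT with hydrogel CT, Dctn4 reached 112 CPM in number 1724, Dynlt3 168 CPM and Kif13b 91.4 CPM in number 1762, and Map1b was lowest at 133 CPM in number 1683. In HA with SCI only, number 9935 held the lowest Kif5a (3.07 CPM), the highest Kif5c (21.2 CPM) and Klc4 at 5.30 CPM, and number 9596 the highest Tuba1a (139 CPM) and Tubg1 (11.1 CPM).

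Of the 13 genes tested in both fractions, the fitted difference had opposite signs in HA and FT for 4 between growth factors and hydrogel CT, 6 between hydrogel CT and SCI only and 7 between growth factors and SCI only. Among the named genes, 2 are singled out because in each fraction every library of the hydrogel group lay on the same side of the mean of SCI only, and on opposite sides in HA and FT; the difference was not tested. Kif5c between hydrogel CT and SCI only had a log2 difference of 0.76 in HA and -0.63 in FT, 1.39 apart. Tuba1b between growth factors and SCI only had 0.90 in HA and -1.44 in FT, 2.34 apart. For both genes the hydrogel group overlapped SCI only in each fraction. Per kilobase, Tuba1b ran from 17.2 to 60.9 with growth factors and 10.3 to 27.9 with SCI only in HA. In FT it ran from 0 to 125 and from 103 to 168. In each fraction its nearest growth factor library lay close to the mean of SCI only.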

How the results depend on the processing

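Alternatives were counted for 29 results, the genes called in each comparison and the 3 with the smallest p not called. Of their 422 alternative values, 363 kept direction and side of the threshold, 30 lost the call, 28 gained one and 1 reversed. The reversed value was Tuba1a in FT, growth factors against hydrogel CT, at -0.82 without number 1732 (range over libraries left out -0.82 to 2.92). Other values of named genes are outside this count, and some changed sign with DESeq2 size factors. Examples are Dynll1 in HA against FT, and Dync1li2, Tuba1a and Tuba4a in HA, hydrogel CT against SCI only. Map2 and Tubb2b kept the HA against FT call under all 19 alternatives. The replicate block (title number) gave 6 called genes of the group and 673 of all genes (409 higher, 264 lower), losing Dync1li2; correlations of same-numbered deviations ran from 0.00656 to 0.121, so the numbers were not shown to pair libraries. For HA against FT, DESeq2 size factors called 4 genes of the group, and SCI only libraries called 422 of all genes and 5 of the group, losing Dync1li2, Kif5a, Kif5b and Map4 and gaining Kif3b and Tubb4a. Filters grouped by fraction and treatment or by the design matrix, and no filter, each called 9 of the group (910, 867 and 916 of all genes). Leaving out numbers gave 4 to 9 of the group.

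In HA, DESeq2 called 1, 2 and 5 genes of the group for growth factors against hydrogel CT, hydrogel CT against SCI only and growth factors against SCI only, and 293, 244 and 715 of all genes. For the first, all-gene calls were 0 with DESeq2 size factors, with the loci left out and with the 2 groups alone (0 to 13 over libraries left out). For the second they were 8 with the loci left out and 113 with the 2 groups alone, where 1 gene of the group was called (3 to 15). For the third they were 69 with no filter, 66 with the loci left out and 5 with the 2 groups alone (2 to 127; group 0 to 1).

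In FT, hydrogel CT against SCI only, the group had 1 call with DESeq2, 2 with no filter and 4 with the 2 groups alone, and all genes 57 with DESeq2, 6 with size factors, 149 with no filter, 31 with the loci left out and 209 with the 2 groups alone (4 to 17). In FT, growth factors against SCI only, the group had 2 with DESeq2, 3 with no filter, 1 with the loci left out and 1 with the 2 groups alone (0 to 1), and all genes 79 with DESeq2, 6 with size factors and 174 with no filter (9 to 23). FT libraries with hydrogel, at 3284 to 119843 counts outside the loci, limit what can be detected.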
